A study of Mus musculus with 32 samples.

Results

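The change in the transcriptome of interscapular brown adipose tissue (iBAT) over the first 6 h of the dark phase was obtained by comparing the 4 mice killed at Zeitgeber time (ZT) 18 with the 4 mice killed at ZT12, 8 of the 32 mice of the series. ZT counts hours from lights on, so that ZT12 is the start of the dark (active) phase and ZT18 lies 6 h into it. All mice were male C57BL/6J animals of 10 weeks on chow, kept in a light:dark cycle below their thermoneutral zone and killed without fasting, and each library was made from a piece of the snap-frozen pad of 1 mouse. The groups carry no genetic change and no treatment and differ in the time of death and in the sequencing lane. The comparison addresses what happens to gene expression between the onset of activity and the middle of the active night.

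Brown adipocytes burn fatty acids in their mitochondria and release the energy as heat through the uncoupling protein UCP1. They draw fatty acids from circulating lipoproteins through lipoprotein lipase, from glucose through de novo lipogenesis and from their own lipid droplets. Like most cells they hold a molecular clock, in which the activators BMAL1 and CLOCK switch on the genes of their own repressors (the PER, CRY and REV-ERB proteins) and of output factors such as DBP, while REV-ERB proteins in turn repress the gene of BMAL1. Mice are active, eat and have a higher body temperature in the dark, and body temperature, feeding and glucocorticoids are known to act on peripheral clocks.

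Values are read counts per gene, given as CPM (counts scaled to a common library total and between libraries by TMM). Total counts of the 8 libraries lay between 16300770 and 18254659, and 15505 genes were tested. The ZT12 and ZT15 libraries shared lane 3, and the ZT18 and ZT21 libraries shared lane 4, so that lane and time of day cannot be told apart in the comparison of ZT18 with ZT12. Many genes are therefore also given with the step from ZT12 to ZT15 within lane 3. Others are given with the ZT18 against ZT12 difference from a 24 h cosine, fitted to all 32 libraries beside lane. For some named genes neither is given. Each lane holds only neighbouring time points, so that the cosine difference rests on the assumed shape. A gene with another course over the day can fail to pass or turn in sign by its shape alone. In whole tissue, fewer cells of a type and less RNA per cell cannot be told apart.

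Brown adipocyte markers were abundant in every library, with a summed level of 12549 to 16904 CPM at ZT12 and 11696 to 13687 CPM at ZT18 over 13 genes. Transcripts of skeletal muscle were present to very different extents. The 13 muscle markers summed to 264, 7703, 2123 and 20.3 CPM in the ZT12 mice and to 4.13, 4.53, 2211 and 5626 CPM in the ZT18 mice. In each group 2 libraries exceeded 1000 CPM, the groups overlapped (exact permutation test, two-sided, p = 0.686, n = 4 each), and none of the 13 markers passed the gene-wise test. The share of counts from mitochondrially encoded genes was 22.4% to 23.9% at ZT12 and 18.5% to 20.7% at ZT18. All ZT18 mice lay below all ZT12 mice (exact permutation test, two-sided, p = 0.0286, the smallest value that 4 against 4 mice can give).

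**Figure D1:**
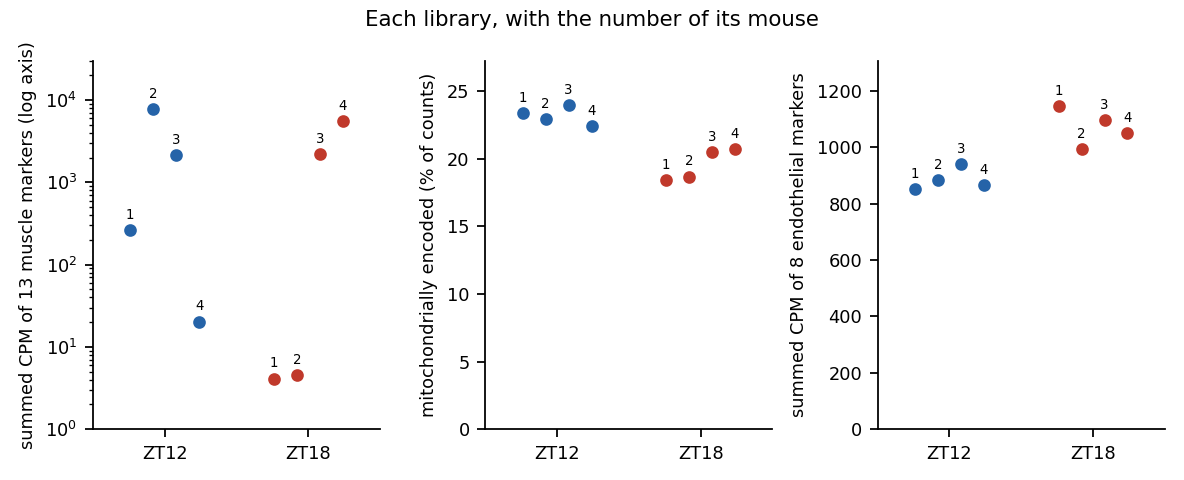
Values of each library at ZT12 (blue) and ZT18 (red), with the number of the mouse beside its point. Left, the summed level of 13 skeletal muscle markers in CPM on a log axis, where 2 libraries of each group lie above 1000 CPM. Middle, the percentage of counts from mitochondrially encoded genes, and right, the summed CPM of 8 endothelial markers. In the middle and right panels the groups do not overlap.

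Between ZT12 and ZT18, 1260 genes differed (edgeR, Benjamini-Hochberg adjusted p under 0.05), which is 8.13% of those tested. Of these, 652 were higher at ZT18 (4.21%) and 608 lower (3.92%). The balance depended on the scaling, with 644 higher and 445 lower by library size alone and 589 higher and 646 lower with RLE size factors. Most changes were modest, with a median of 1.39-fold among the 1260 genes, and 211 of them exceeded 2-fold. For 1092 of the 1260 genes the ranges of the 4 mice at each time point were separate, as they were for 16.1% of all tested genes. The count rested on single mice in the leave-one-out fits, each of which left out 1 of the 8 libraries: it was 597 without replicate 1 of ZT18, 718 without replicate 2 of ZT18, 755 without replicate 3 of ZT12 and 779 without replicate 2 of ZT12. With the 4 libraries above 1000 CPM of muscle markers left out, which leaves 2 mice per group, it was 266, and 252 of these were among the 1260 with the same direction. With the muscle level as a covariate it was 1126. A test against a change of at least 1.5-fold called 27 genes.

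Over the single steps, 472 genes differed between ZT12 and ZT15 (3.04%), 314 higher and 158 lower at ZT15 (270 and 95 with scaling by library size alone), and 182 between ZT15 and ZT18 (1.17%), 66 higher and 116 lower at ZT18. The first of these steps lies within lane 3 and the other crosses lanes, and whether the steps differ was not tested. From ZT18 to ZT21, within lane 4, 320 genes differed (2.06%), 192 higher and 128 lower at ZT21, against 75 higher and 112 lower with scaling by library size alone. For ZT18 against ZT12 the cosine fitted beside lane, which assumes a shape, gave 1415 genes (9.13%). It held 411 of the 1260 genes with the same direction and 2 with the opposite one. Of 107 genes named in the text, 52 kept their status beside lane, 45 lost their call and 10 turned in sign.

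**Figure D2:**
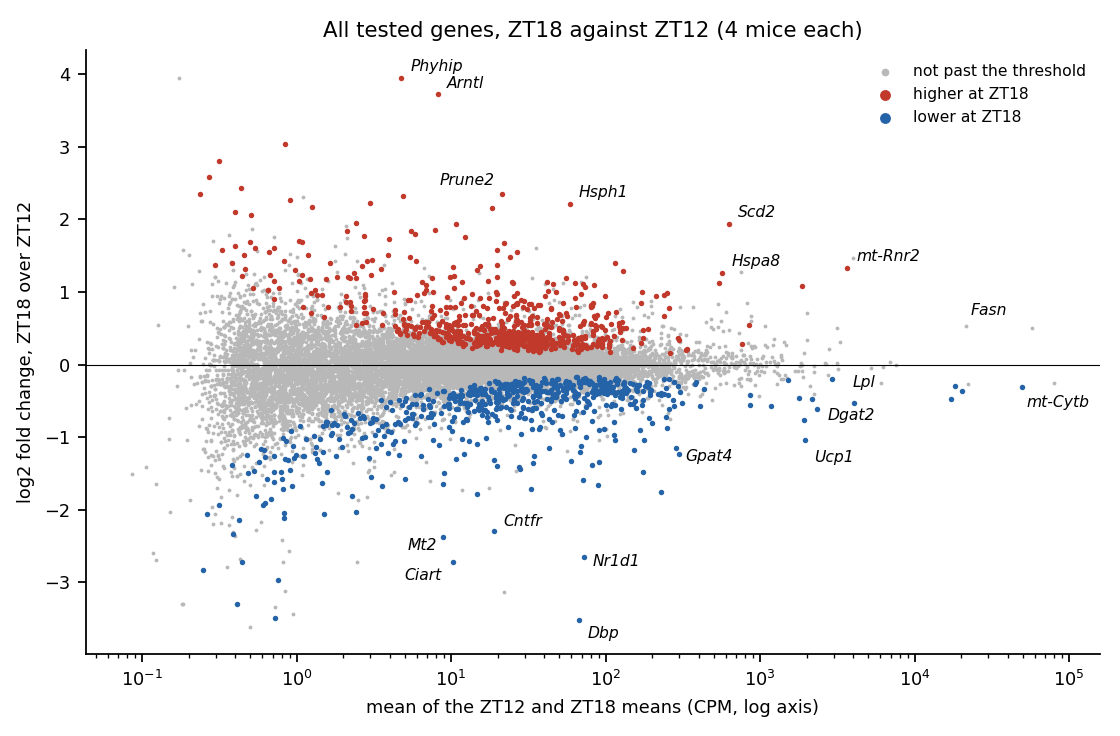
Each point is 1 of the tested genes, with the mean of its ZT12 and ZT18 levels in CPM on the log x axis and its log2 fold change of ZT18 over ZT12 on the y axis. Red points were higher and blue points lower at ZT18 past the threshold (652 and 608 genes). Of the labelled genes, Phyhip and clock genes such as Arntl and Dbp lie farthest from 0, while abundant genes such as Lpl, Dgat2 and mt-Cytb moved by less than 1 log2 unit.

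Genes of the molecular clock shifted in both directions. The gene lists were chosen with earlier results of these data known, so that the shares called in them are not independent evidence. Of 19 clock genes 15 passed the threshold, 6 higher and 9 lower at ZT18, beside 8.13% of all tested genes. All of these 15 but Rora (-0.31, adjusted p 0.213) also passed in the same direction beside lane. Without the 4 libraries of high muscle level 3 were higher and 8 lower, and Npas2, Rora and Nfil3 were among those that no longer passed. Among the 5 activators 4 were higher and Rora was lower, with a median log2 fold change of 0.72 against -0.01 over all tested genes. Among the 11 repressors 2 were higher and 5 lower (median -0.67), and the 3 output factors were all lower (median -1.33).

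Arntl encodes BMAL1, the partner of CLOCK in the activating complex. Its level was 1.38, 0.988, 0.971 and 1.26 CPM at ZT12 and 17.0, 16.0, 12.0 and 16.3 CPM at ZT18. It lay at 3.35 CPM ± 0.671 at ZT15 (SD, n = 4), so that each time point was above the one before it, and the rise over the 6 h was 13.2-fold (log2 fold change 3.73, SE 0.30, adjusted p 4.41e-09). Within lane 3 alone the step to ZT15 was 1.54 (adjusted p 0.00743), and the cosine beside lane gave 2.52, adjusted p 2.78e-06. Clock itself rose by far less, from 41.7 CPM ± 2.23 to 63.1 CPM ± 3.91 (log2 fold change 0.60, SE 0.10, adjusted p 0.000269). Npas2, which can stand in for CLOCK, was barely detected, with 0.240, 0.0581, 0.00 and 0.00 CPM at ZT12 and 0.386, 0.331, 0.394 and 0.491 CPM at ZT18, and passed the threshold (adjusted p 0.0204, over 0.05 in 3 of 8 leave-one-out fits and at most 0.069 without replicate 3 of ZT12). Rora, which encodes the nuclear receptor RORα, an activator of Arntl, was 26.2, 32.0, 25.3 and 25.3 CPM at ZT12 and 19.5, 18.9, 18.9 and 23.7 CPM at ZT18 (adjusted p 0.04, over 0.05 in 6 of 8 leave-one-out fits and at most 0.149 without replicate 2 of ZT12).

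Both REV-ERB genes fell. Nr1d1, encoding REV-ERBα, was at 154, 111, 117 and 114 CPM at ZT12 and 13.5, 28.8, 20.7 and 15.9 CPM at ZT18, which is 6.30-fold lower with no overlap (log2 fold change -2.66, SE 0.24, adjusted p 2.91e-08). Most of this fall was present at ZT15, where its mean was 33.3 CPM ± 2.68 (SD, n = 4, step within lane 3 -1.90, adjusted p 7.87e-05). Nr1d2, encoding REV-ERBβ, fell from 136 CPM ± 14.7 to 43.1 CPM ± 10.7 (log2 fold change -1.66, SE 0.18, adjusted p 1.73e-06). Ciart, a further repressor of the activating complex, was at 19.5, 14.7, 22.3 and 14.7 CPM at ZT12 and 3.25, 2.59, 2.59 and 2.35 CPM at ZT18 (log2 fold change -2.72, SE 0.28, adjusted p 6.39e-07).

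The PER and CRY genes did not move as 1 group. Per1 was 112, 109, 140.1 and 112 CPM at ZT12 and 35.4, 31.5, 69.99 and 44.7 CPM at ZT18 (log2 fold change -1.38, SE 0.30, adjusted p 0.00512), and Per3 was 212, 214, 229 and 196 CPM at ZT12 and 79.7, 101, 111 and 85.1 CPM at ZT18 (log2 fold change -1.18, SE 0.19, adjusted p 0.00024). Per2 was 76.5, 79.2, 84.6 and 92.5 CPM at ZT12 and 66.0, 55.5, 39.6 and 47.6 CPM at ZT18, with a mean of 109.8 CPM ± 13.0 at ZT15. It did not pass between ZT12 and ZT18 with edgeR (adjusted p 0.0587), although it did with DESeq2 (adjusted p 0.0284) and in edgeR on the 8 libraries alone (adjusted p 0.0247). Its step from ZT15 to ZT18 passed (log2 fold change -1.07, SE 0.22, adjusted p 0.0165). Cry1 went the other way, with 13.0, 14.7, 18.0 and 17.5 CPM at ZT12 and 37.4, 34.9, 29.1 and 36.7 CPM at ZT18 (log2 fold change 1.13, SE 0.15, adjusted p 2.24e-05). Cry2 was 74.9, 67.7, 80.1 and 58.0 CPM at ZT12 and 63.4, 65.5, 57.6 and 52.7 CPM at ZT18 and did not pass (-0.23, adjusted p 0.304). Nfil3, which encodes a repressor at the D-box elements that DBP activates, was at 12.0, 11.0, 11.8 and 15.9 CPM at ZT12 and 39.9, 25.4, 36.0 and 40.6 CPM at ZT18 (log2 fold change 1.48, SE 0.24, adjusted p 0.000305). Its lowest ZT18 mouse was therefore above its highest ZT12 mouse, while the transcripts of Dbp, Tef and Hlf went down.

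The output factors Dbp, Tef and Hlf encode the activators of D-box elements, and all 3 fell. Dbp was 108, 117, 151 and 118 CPM at ZT12 and 9.70, 11.5, 12.7 and 9.17 CPM at ZT18, 11.5-fold lower at ZT18 (log2 fold change -3.52, SE 0.25, adjusted p 7.28e-10), with 46.9 CPM ± 5.55 at ZT15 (SD, n = 4). Tef was 437, 409, 418 and 407 CPM at ZT12 and 169, 193, 188 and 164 CPM at ZT18 (log2 fold change -1.23, SE 0.17, adjusted p 4.95e-05) and Hlf was 73.9, 89.0, 95.1 and 83.8 CPM at ZT12 and 30.0, 34.9, 38.2 and 32.7 CPM at ZT18 (log2 fold change -1.33, SE 0.16, adjusted p 4.36e-06). For Dbp the step within lane 3 passed (-1.40, adjusted p 0.000951), whereas for Tef and Hlf it did not (-0.18 and -0.18, adjusted p 0.64 and 0.608). From ZT15 to ZT18, a step that crosses lanes, all 3 passed, with log2 fold changes of -2.12 for Dbp, -1.05 for Tef and -1.15 for Hlf (adjusted p 2.47e-05, 0.00194 and 0.00015). Whether the steps differ between these genes was not tested.

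Promoter sequences of clock genes that rose and that fell are shown because the elements that clock factors bind are known. Each runs from 250 bases before to 50 bases after a transcription start, from RefSeq on GRCm38.p6, and was found for 16 of the 19 genes. The elements searched, on both strands, were the E-box CACGTG of the BMAL1 and CLOCK complex, TAGGTCA of the REV-ERB receptors and RORα and the D-box TTATGTAA, whose letters share no overlap with one another in the sequences shown. Capitals mark the element, which is TAGGTCA in Arntl (chr7:113207261-113207560, plus strand) and Nfil3 (chr13:52980990-52981289, minus strand, printed 5′ to 3′ of the gene, in which the element is reverse complemented and reads TGACCTA), both higher at ZT18, and CACGTG in Cry1 (chr10:85185005-85185304, minus strand), Per1 (chr11:69098699-69098998, plus strand) and Ciart (chr3:95882179-95882478, minus strand), of which Cry1 was higher and the other two lower.
Arntl: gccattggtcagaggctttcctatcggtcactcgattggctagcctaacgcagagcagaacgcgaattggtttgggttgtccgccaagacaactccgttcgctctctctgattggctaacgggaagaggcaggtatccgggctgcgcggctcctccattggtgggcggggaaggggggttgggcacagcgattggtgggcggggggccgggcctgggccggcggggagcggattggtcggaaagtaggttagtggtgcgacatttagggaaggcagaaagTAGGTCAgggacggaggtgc
Nfil3: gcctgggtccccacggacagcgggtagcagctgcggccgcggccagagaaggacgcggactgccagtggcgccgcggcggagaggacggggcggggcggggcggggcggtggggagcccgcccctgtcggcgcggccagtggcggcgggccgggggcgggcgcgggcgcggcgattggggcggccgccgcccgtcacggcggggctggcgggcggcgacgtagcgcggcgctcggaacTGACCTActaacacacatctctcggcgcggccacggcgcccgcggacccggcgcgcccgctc
Cry1: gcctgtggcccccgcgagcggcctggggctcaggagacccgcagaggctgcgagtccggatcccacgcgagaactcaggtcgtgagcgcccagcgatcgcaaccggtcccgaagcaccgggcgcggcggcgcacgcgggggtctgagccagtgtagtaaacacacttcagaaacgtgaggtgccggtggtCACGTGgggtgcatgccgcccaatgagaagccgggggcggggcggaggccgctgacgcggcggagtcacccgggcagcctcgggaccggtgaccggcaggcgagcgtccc
Per1: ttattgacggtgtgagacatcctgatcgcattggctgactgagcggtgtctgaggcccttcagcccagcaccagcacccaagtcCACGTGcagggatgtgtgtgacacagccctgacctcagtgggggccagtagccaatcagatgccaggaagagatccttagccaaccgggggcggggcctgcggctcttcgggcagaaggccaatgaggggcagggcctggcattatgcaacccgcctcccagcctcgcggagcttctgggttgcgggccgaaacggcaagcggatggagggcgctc
Ciart: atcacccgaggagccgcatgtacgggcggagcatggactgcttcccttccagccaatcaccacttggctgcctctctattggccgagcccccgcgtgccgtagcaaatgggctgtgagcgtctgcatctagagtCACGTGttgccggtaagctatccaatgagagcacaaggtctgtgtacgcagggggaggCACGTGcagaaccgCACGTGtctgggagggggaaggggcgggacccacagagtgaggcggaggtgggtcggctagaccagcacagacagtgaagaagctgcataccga

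Among the 10 promoters of the repressor list 4 held the E-box, 1 TAGGTCA and 1 the D-box, and among the 7 of the activators 1 held TAGGTCA. Of the 4 promoters of the output factors 2, both of Tef, held the E-box. In all 32851 promoters of this length, 7.15% held the E-box, 2.61% TAGGTCA and 0.938% the D-box. The single element begins at position 31 from the start site in Arntl, where 1 of 2 listed promoters holds it, at -12 in Nfil3 and at -60 in Cry1. The E-box of Per1 begins at -166, and 1 of its 2 listed promoters holds it. A match is a description of these letters and not a binding site. Dbp, Nr1d1 and Nr1d2 held no E-box in these windows.

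**Figure D3:**
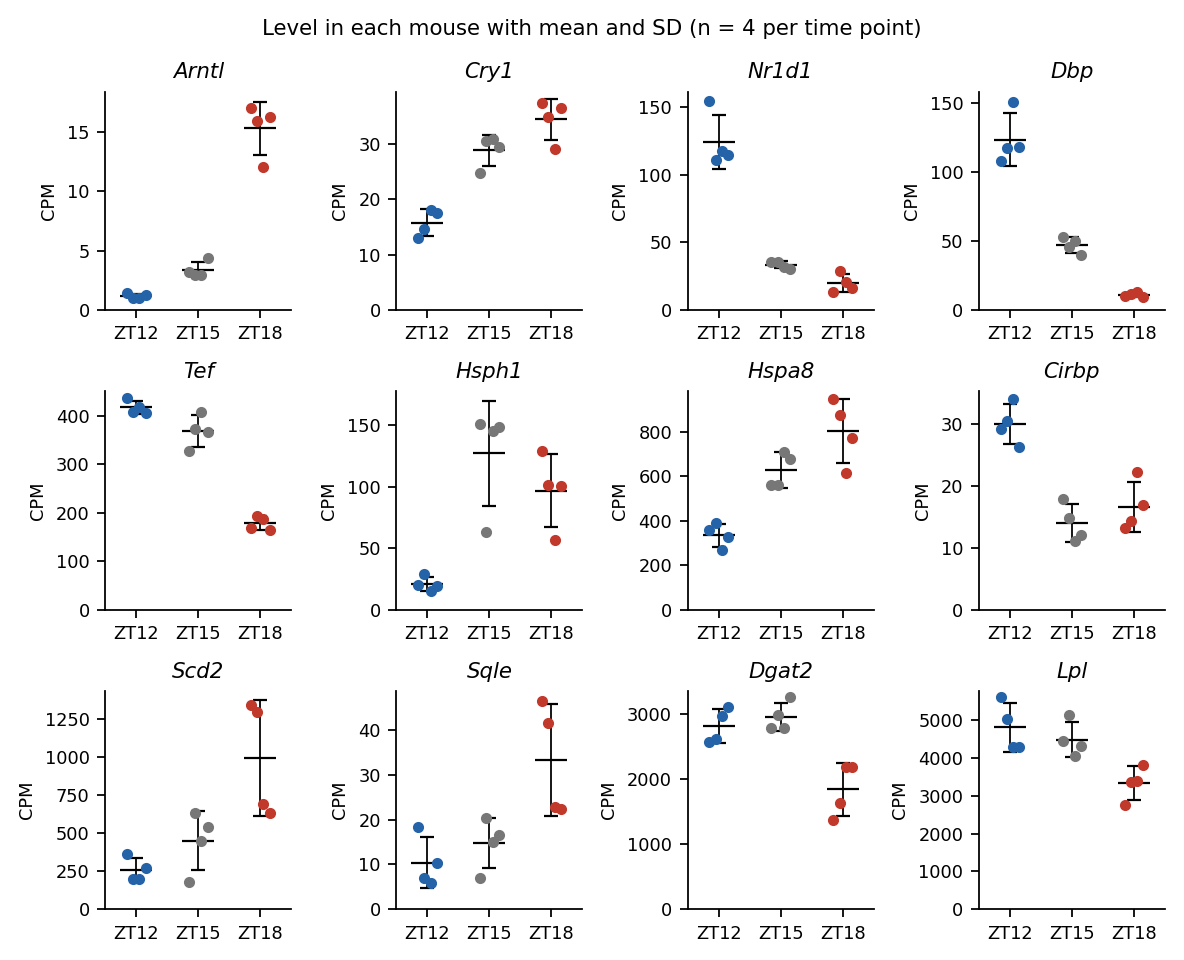
Level of 12 genes in each mouse in CPM at ZT12 (blue), ZT15 (grey) and ZT18 (red), with the mean (bar) and SD (whiskers) of 4 mice. Arntl and Cry1 were higher and Nr1d1, Dbp and Tef lower at ZT18 than at ZT12 without overlap. Hsph1 was highest on average at ZT15. The means of Scd2 and Sqle rose and those of Dgat2 and Lpl fell mainly after ZT15, in the step that crosses lanes.

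Many genes of the heat-shock response rose. Heat-shock proteins are chaperones that keep other proteins folded, and their genes are switched on by the factor HSF1 when the temperature rises or proteins unfold, whereas Cirbp and Rbm3 are induced by cooling. Of 21 heat-shock and cold-inducible genes, 14 were higher at ZT18 and 1, Cirbp, was lower, beside 8.13% of all tested genes. This list too was chosen with earlier results of these data known, so that its share is not independent evidence. The median log2 fold change of the list was 0.85, and 20 of its 21 members had a value above 0. All 15 called members also passed with the same direction beside lane, and 14 members passed upward within lane 3 from ZT12 to ZT15. With the 4 libraries of high muscle level left out, 7 were higher and Cirbp lower.

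Hsph1, which encodes the HSP110 chaperone, led the list with 19.8, 29.2, 15.1 and 19.0 CPM at ZT12 and 129, 101, 56.9 and 100.0 CPM at ZT18 (4.65-fold, log2 fold change 2.22, SE 0.34, adjusted p 0.000156). The lowest ZT18 mouse, replicate 3, was still above every ZT12 mouse. At ZT15 the mean was already 127 CPM ± 42.6 (SD, n = 4, step 2.61, adjusted p 0.000159). Hspa8, the abundant constitutive HSP70, was 359, 389, 266 and 325 CPM at ZT12 and 948, 876, 615 and 773 CPM at ZT18 (log2 fold change 1.26, SE 0.19, adjusted p 0.000114). Hspa1b, the inducible HSP70, was low throughout, with 1.14, 1.63, 1.03 and 1.10 CPM at ZT12 and 4.02, 4.03, 2.48 and 6.22 CPM at ZT18 (adjusted p 0.0288, over 0.05 in 6 of 8 leave-one-out fits and at most 0.0851 without replicate 4 of ZT18). It averaged 12.4 CPM at ZT15, and 49.9% of its 100-base stretches also occur in other genes, mainly Hspa1a, so that its reads may be shared. In Hsp90aa1, Hspb1 and Hspa8 this share was 38.0%, 44.0% and 28.5%, and it was lower in the other members named here.

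The HSP90 genes and their partners also rose. Hsp90ab1 was 707, 716, 717 and 626 CPM at ZT12 and 1184, 915, 795 and 1154 CPM at ZT18 (0.55, adjusted p 0.0157, over 0.05 in 3 of 8 leave-one-out fits and at most 0.0779 without replicate 1 of ZT18), and Hsp90aa1 was 75.1, 59.1, 36.4 and 44.4 CPM at ZT12 and 140.0, 121, 74.8 and 125 CPM at ZT18 (1.10, adjusted p 0.0104). The co-chaperone genes Stip1, Ahsa1, Fkbp4 and Chordc1 had log2 fold changes of 1.12, 0.85, 0.55 and 1.01, with adjusted p from 0.000246 to 0.00115. The J-domain genes Dnaja1 and Dnajb1, which feed proteins to HSP70, rose by 0.98 and 0.84, the HSP70 relative Hspa4l by 1.19 and the small heat-shock gene Hspb1 by 0.98. Hsf1 itself rose from 24.1 CPM ± 0.949 to 30.2 CPM ± 1.96 (log2 fold change 0.33, SE 0.08, adjusted p 0.00683). Apart from Hspa1b and Hsp90ab1, all of the called members kept an adjusted p under 0.05 in each of the 8 fits that left out 1 library.

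The cold-inducible gene Cirbp was 29.1, 30.5, 34.1 and 26.2 CPM at ZT12 and 13.1, 14.2, 22.1 and 16.8 CPM at ZT18 and fell (log2 fold change -0.85, SE 0.18, adjusted p 0.00307), with 13.9 CPM at ZT15 on average. Rbm3, which is regulated in a like way elsewhere, was 33.6, 33.1, 37.1 and 42.5 CPM at ZT12 and 38.7, 42.5, 40.0 and 33.8 CPM at ZT18 and did not pass (0.08, adjusted p 0.755). Among the genes with the largest rise in CPM was also Serpinh1, the collagen chaperone HSP47, with 177, 167, 146 and 157 CPM at ZT12 and 364, 327, 268 and 307 CPM at ZT18 (log2 fold change 0.97, SE 0.14, adjusted p 0.000101). A list of 20 chaperones and stress-response genes of the endoplasmic reticulum, which does not hold Serpinh1 although HSP47 resides there, gave no call with edgeR or with DESeq2, with 3 at an unadjusted p under 0.05 (23.0% of all tested genes) and a median of 0.04.

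The promoter of Hsph1 (chr5:149636266-149636565, minus strand, RefSeq, GRCm38.p6) is shown because it leads this list and holds the heat-shock element, searched on both strands as the units GAA, TTC and GAA with 2 bases of any kind between units and marked in capitals.
Hsph1: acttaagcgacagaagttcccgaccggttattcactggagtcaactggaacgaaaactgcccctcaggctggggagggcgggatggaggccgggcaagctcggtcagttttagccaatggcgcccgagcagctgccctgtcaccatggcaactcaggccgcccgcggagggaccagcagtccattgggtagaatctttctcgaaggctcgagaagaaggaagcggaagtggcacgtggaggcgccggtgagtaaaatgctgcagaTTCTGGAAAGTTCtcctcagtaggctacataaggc
This motif was added after the values had been seen. The E-box CACGTG also occurs in this sequence, unmarked, and in 3 of 22 promoters of the list, against 7.15% of all promoters. Promoters were found for 16 of the 21 genes. The heat-shock element was held by 4 of these genes (Chordc1, Hspd1, Hspe1 and Hsph1) in 5 of 22 promoters, against 0.603% of all promoters. Hspd1 and Hspe1 did not pass the test, and their promoter windows overlap on opposite strands. Such elements vary in sequence, and a promoter without these letters says nothing about the factor.

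**Figure D4:**
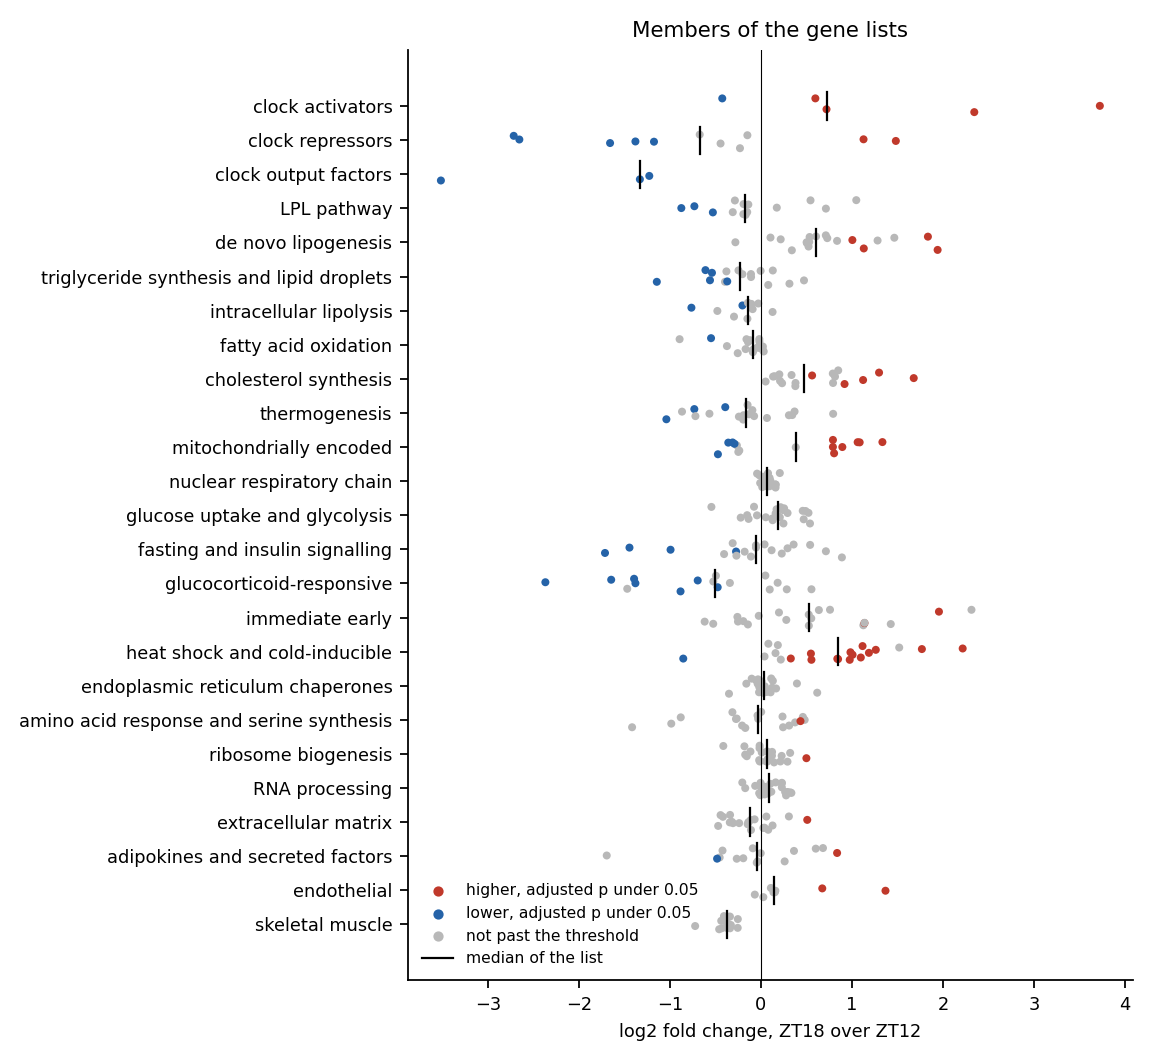
Log2 fold change of ZT18 over ZT12 of each member of the gene lists, with members past the threshold in red (higher) or blue (lower) and the list median as a black bar. Heat-shock genes lie to the right of 0 and clock output factors to the left, while the nuclear respiratory chain lies close to 0.

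The called genes of the lipoprotein lipase, triglyceride and lipid droplet and lipolysis lists were all lower at ZT18, and those of the de novo lipogenesis and cholesterol synthesis lists were all higher. Of the 14 tested genes around lipoprotein lipase, 3 were lower and none higher, of 16 genes of triglyceride synthesis and lipid droplets 5 were lower and none higher, and of 10 lipolysis genes 2 were lower and none higher. In contrast, 4 of 19 genes of de novo lipogenesis and 5 of 18 of cholesterol synthesis were higher and none lower. The shares called in each direction over all tested genes were 4.21% and 3.92%. Beside lane, 2 genes were higher and 1 lower in the lipoprotein lipase list, 2 higher and 1 lower in the triglyceride and droplet list and 1 higher and 1 lower in the lipolysis list, so that these directions depended on the fit. The cosine beside lane called 9.13% of all tested genes. All but the cholesterol list follow genes that the study reported on in these samples. All of these lists were chosen with earlier results of these data known and are not independent evidence of a direction.

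Lpl encodes the enzyme that releases fatty acids from circulating triglycerides. Its level was 5629, 5047, 4299 and 4299 CPM at ZT12 and 2755, 3379, 3396 and 3831 CPM at ZT18 (log2 fold change -0.53, SE 0.12, adjusted p 0.00692), with every ZT18 mouse below every ZT12 mouse. At ZT15 it averaged 4486 CPM ± 462 (SD, n = 4), and the cosine beside lane gave -0.08, adjusted p 0.667. Lrp1, a receptor that takes up lipoprotein remnants, was 262, 300.0, 356 and 370.2 CPM at ZT12 and 154, 151, 183 and 215 CPM at ZT18 (log2 fold change -0.88, SE 0.17, adjusted p 0.00151), and Slc27a1, encoding the fatty acid transporter FATP1, was 254, 253, 228 and 215 CPM at ZT12 and 144, 137, 149 and 142 CPM at ZT18 (log2 fold change -0.73, SE 0.13, adjusted p 0.000967). The fatty acid receptor gene Cd36 did not pass, with 2197, 2063, 1899 and 1874 CPM at ZT12 and 1660.4, 1834, 1817 and 1833 CPM at ZT18 (-0.17, adjusted p 0.121). Angptl4, the secreted inhibitor of the enzyme, varied widely among mice, with 91.2, 236, 98.0 and 179 CPM at ZT12 and 118, 165, 287 and 422 CPM at ZT18, and did not pass (0.71, adjusted p 0.353). The LPL list median was -0.18. Apoc2 and Apoa5 were listed at 0 and were not tested, and only Slc27a1 of the 3 called genes passed beside lane.

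In the storage list, Gpat4 and Dgat2 encode enzymes of the first and the last step of triglyceride assembly. Gpat4 was 407, 422, 395 and 352 CPM at ZT12 and 135, 158, 204 and 215 CPM at ZT18 (log2 fold change -1.14, SE 0.17, adjusted p 0.000101) and passed beside lane (-0.74, adjusted p 0.00169). Dgat2 was 2569, 2609, 2973 and 3101 CPM at ZT12 and 1370.0, 1634, 2191 and 2178 CPM at ZT18 (log2 fold change -0.61, SE 0.13, adjusted p 0.00386). At ZT15 it was 2952 CPM ± 221 (SD, n = 4), so that its fall lies in the step that crosses lanes (-0.68, adjusted p 0.00764). In both genes replicates 1 and 2 of ZT18, the libraries with the lowest muscle level, were the lowest. The droplet coat gene Plin5 fell by 0.54 on the log2 scale (adjusted p 0.00379), and Cidec, which enlarges droplets, by 0.56 (adjusted p 0.00993, 0.0591 without replicate 1 of ZT18). Fitm2, needed for droplet formation, was 229, 218, 167 and 175 CPM at ZT12 and 153, 156, 145 and 156 CPM at ZT18 (adjusted p 0.033, over 0.05 in 5 of 8 leave-one-out fits and at most 0.117 without replicate 1 of ZT12). Dgat2, Plin5, Cidec and Fitm2 did not pass beside lane.

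Acsl1, which activates fatty acids with coenzyme A, was 3100.2, 2569, 2106 and 1885 CPM at ZT12 and 1199.9, 1347, 1459 and 1680.3 CPM at ZT18 (log2 fold change -0.76, SE 0.16, adjusted p 0.00335), and its fall was already present within lane 3 at ZT15 (-0.65, adjusted p 0.0239). Pnpla2, the gene of adipose triglyceride lipase, moved little but evenly, with 3216, 3017, 3141 and 3112 CPM at ZT12 and 2752, 2629, 2729 and 2732 CPM at ZT18 (-0.20, adjusted p 0.0273, over 0.05 in 4 of 8 leave-one-out fits and at most 0.0768 without replicate 2 of ZT18). Of 19 fatty acid oxidation genes only Cpt1a, the entry enzyme of mitochondrial oxidation in liver and other tissues, passed, with 17.4, 19.5, 22.3 and 18.9 CPM at ZT12 and 13.0, 12.9, 14.5 and 13.1 CPM at ZT18 (log2 fold change -0.55, SE 0.10, adjusted p 0.00097), and it passed beside lane (-0.74, adjusted p 1.32e-05). Over all tested genes 8.13% were called, so that 1 of 19 is no result about this list.

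Of the 4 called genes of de novo lipogenesis those given here varied widely among mice, and the other 15 genes of the list did not pass. Scd2, a stearoyl-CoA desaturase, was 362, 199, 199.9 and 272 CPM at ZT12 and 1342, 1298, 694 and 633 CPM at ZT18 (3.84-fold, log2 fold change 1.94, SE 0.45, adjusted p 0.00754). Replicates 1 and 2 of ZT18, the libraries with the lowest muscle level, were well above replicates 3 and 4, and all 4 were above every ZT12 mouse. Elovl5, which lengthens polyunsaturated fatty acids, was 151, 101, 89.9 and 112 CPM at ZT12 and 277, 229.9, 161 and 243 CPM at ZT18 (adjusted p 0.0272, over 0.05 in 6 of 8 leave-one-out fits and at most 0.0934 without replicate 1 of ZT18). Insig1, a sterol-responsive brake on lipogenic transcription, was 491, 312, 284 and 268 CPM at ZT12 and 741, 1004, 640.2 and 585 CPM at ZT18 (adjusted p 0.0262, over 0.05 in 5 of 8 leave-one-out fits and at most 0.102 without replicate 2 of ZT18). Fasn, encoding fatty acid synthase, was 24244, 13550.2, 16239.8 and 15991 CPM at ZT12 and 29663, 29550.0, 22031 and 19902 CPM at ZT18 and did not pass (0.53, adjusted p 0.557). Of the 19 genes 18 had a value above 0 (median 0.61), and 1 of the 4 called genes passed beside lane.

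Among cholesterol synthesis genes all 18 tested had a value above 0 (median 0.47). Sqle, encoding squalene epoxidase, was 18.4, 6.92, 5.95 and 10.3 CPM at ZT12 and 46.6, 41.6, 22.7 and 22.4 CPM at ZT18 (log2 fold change 1.68, SE 0.42, adjusted p 0.0131), and its adjusted p was over 0.05 in 3 of 8 leave-one-out fits and at most 0.0581 without replicate 1 of ZT18. Pmvk and Mvd, of the mevalonate part of the pathway, had log2 fold changes of 1.12 and 1.30 (adjusted p 0.0129 and 0.0384). Without replicate 1 of ZT18 that of Pmvk was 0.0513, and that of Mvd was over 0.05 in 5 of 8 leave-one-out fits and at most 0.131 without replicate 2 of ZT18. Lss, encoding lanosterol synthase, was 58.7, 35.9, 38.0 and 42.3 CPM at ZT12 and 102, 101, 65.4 and 62.2 CPM at ZT18 (adjusted p 0.0355, over 0.05 in 5 of 8 leave-one-out fits and at most 0.12 without replicate 1 of ZT18). Stard4, a cholesterol carrier, was 14.8, 10.1, 9.83 and 8.71 CPM at ZT12 and 17.3, 17.8, 13.2 and 15.8 CPM at ZT18 (log2 fold change 0.56, SE 0.13, adjusted p 0.00675) and held in each fit that left out 1 library. Of the 5 called genes only Mvd passed beside lane (1.15, adjusted p 0.0382). No gene of the lipogenesis or cholesterol lists passed when the 4 libraries of high muscle level were left out, where 2 mice per group remained.

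Of 18 tested thermogenic genes 3 were lower and none higher, beside 3.92% of all tested genes that were lower. None of the 3 passed beside lane or without the 4 libraries of high muscle level. Ucp1 was 4061, 3166, 1860.0 and 1399 CPM at ZT12 and 955, 1286, 1733 and 1126 CPM at ZT18, so that replicate 3 of ZT18 lay among the ZT12 mice (log2 fold change -1.04, SE 0.29, adjusted p 0.0236). Its adjusted p was over 0.05 in 5 of 8 leave-one-out fits and at most 0.111 without replicate 1 of ZT12, and the cosine beside lane gave -0.09, adjusted p 0.847. The nuclear receptor genes Esrra and Esrrg, which drive mitochondrial genes, were lower without overlap: Esrra was 165, 153, 147 and 149 CPM at ZT12 and 107, 121, 121 and 119 CPM at ZT18 (-0.39, adjusted p 0.00606) and Esrrg was 44.4, 37.8, 35.7 and 32.2 CPM at ZT12 and 16.7, 27.2, 22.6 and 23.8 CPM at ZT18 (-0.73, adjusted p 0.00322). Beside lane Esrra gave -0.11, adjusted p 0.429, and Esrrg -0.31, adjusted p 0.221. For Esrrg the fall was complete at ZT15 (22.3 CPM). None of the 21 nuclear genes of the respiratory chain passed with edgeR or DESeq2, none had an unadjusted p under 0.05, and their median was 0.06.

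Of the 15 mitochondrially encoded genes 7 were higher and 4 lower, beside 4.21% and 3.92% of all tested genes. With the muscle level as a covariate 7 were higher and 2 lower, and without the 4 libraries of high muscle level 3 were higher and 1 lower. The ribosomal RNA genes mt-Rnr2 and mt-Rnr1 rose, with 2256, 2048, 1780.0 and 2242 CPM at ZT12 and 5999, 5593, 4292 and 5119 CPM at ZT18 for mt-Rnr2 (log2 fold change 1.34, SE 0.18, adjusted p 2.26e-05) and 1286, 1163, 1009.5 and 1343 CPM at ZT12 and 2879, 2645, 2124 and 2537 CPM at ZT18 for mt-Rnr1 (log2 fold change 1.08, SE 0.15, adjusted p 6.28e-05). Both passed within lane 3 from ZT12 to ZT15 (1.08 and 1.04) and beside lane. The protein-coding genes mt-Cytb, mt-Nd1, mt-Nd4 and mt-Nd5, all of the respiratory chain, were lower by -0.31, -0.36, -0.29 and -0.47 on the log2 scale. Their ZT12 means were 55005, 22609, 20131 and 19939 CPM. The adjusted p values were 0.0198, 0.00555, 0.0268 and 0.0194, and none of these 4 passed beside lane, where the sign turned for mt-Cytb (0.047) and mt-Nd4 (0.10). That of mt-Cytb was over 0.05 in 4 of 8 leave-one-out fits and at most 0.0684 without replicate 2 of ZT18, that of mt-Nd4 was over 0.05 in 4 of 8 leave-one-out fits and at most 0.0932 without replicate 1 of ZT12, and that of mt-Nd5 was 0.0941 without replicate 1 of ZT12 and 0.0934 without replicate 1 of ZT18. The other 5 called genes, mt-Nd3, mt-Nd4l, mt-Co2, mt-Co3 and mt-Atp6, were listed at no more than 114 CPM. At least 97.6% of their 100-base stretches also occur in nuclear copies, as do 60.8% of those of mt-Nd4, so the split of their reads is uncertain.

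Some transcripts that follow fasting, insulin and glucocorticoids fell. Of 19 fasting and insulin genes 4 were lower, and of 16 glucocorticoid-responsive genes 7, with none higher in either list, beside 3.92% of all tested genes that were lower (medians -0.06 and -0.51). Beside lane, 2 genes were higher and 4 lower in the fasting and insulin list, and 1 higher and 1 lower in the glucocorticoid list. That fit called 9.13% of all tested genes. Foxo1, encoding a factor that insulin restrains, was 97.5, 103, 98.4 and 98.7 CPM at ZT12 and 45.7, 46.6, 52.4 and 55.0 CPM at ZT18 (log2 fold change -0.99, SE 0.13, adjusted p 2.74e-05). Klf15, a glucocorticoid-responsive regulator of amino acid breakdown, was 34.1, 54.5, 52.8 and 60.6 CPM at ZT12 and 11.8, 12.7, 15.6 and 21.5 CPM at ZT18 (log2 fold change -1.71, SE 0.23, adjusted p 3.08e-05). Ddit4, an inhibitor of mTOR signalling, was 30.7, 50.2, 45.6 and 37.0 CPM at ZT12 and 14.8, 11.6, 15.7 and 18.0 CPM at ZT18 (log2 fold change -1.45, SE 0.26, adjusted p 0.000699). All 3 fell within lane 3 by ZT15 and passed beside lane. Akt2, a kinase of insulin signalling, fell by 0.27 (adjusted p 0.0235, over 0.05 in 3 of 8 leave-one-out fits and at most 0.0872 without replicate 1 of ZT12).

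Among glucocorticoid-responsive genes, the transcription factor gene Klf9 was 110.3, 141, 119.9 and 133 CPM at ZT12 and 71.6, 71.0, 69.4 and 61.7 CPM at ZT18 (log2 fold change -0.88, SE 0.11, adjusted p 1.03e-05). The metallothioneins bind zinc and copper. Mt2 was 13.0, 15.9, 12.3 and 18.1 CPM at ZT12 and 2.09, 1.82, 1.80 and 5.73 CPM at ZT18 (log2 fold change -2.37, SE 0.47, adjusted p 0.00215), and Mt1 was 77.7, 77.5, 70.6 and 82.3 CPM at ZT12 and 49.2, 38.4, 48.5 and 54.3 CPM at ZT18 (log2 fold change -0.70, SE 0.16, adjusted p 0.0063). Exons of Gm45774 on the opposite strand cover 73.5% of those of Mt2, and whether the counts used the strand is not stated. Pik3ip1, an inhibitor of PI3-kinase, was 6.43, 14.8, 18.6 and 14.0 CPM at ZT12 and 3.58, 2.93, 5.24 and 5.40 CPM at ZT18 (adjusted p 0.0217, over 0.05 in 4 of 8 leave-one-out fits and at most 0.0771 without replicate 2 of ZT18). Glul, encoding glutamine synthetase, was 2548, 2650.0, 2471 and 2462 CPM at ZT12 and 1833, 1647, 1765 and 2041 CPM at ZT18 (adjusted p 0.0307, over 0.05 in 6 of 8 leave-one-out fits and at most 0.0992 without replicate 2 of ZT18). Beside lane the sign for Glul turned (0.20, adjusted p 0.323).

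Fkbp5, a co-chaperone of the glucocorticoid receptor, did not follow a straight course. It was 15.6, 27.3, 19.3 and 51.8 CPM at ZT12 and 12.1, 11.2, 5.24 and 14.8 CPM at ZT18 (log2 fold change -1.39, SE 0.35, adjusted p 0.0121, 0.0879 without replicate 4 of ZT12), but averaged 45.3 CPM ± 14.2 at ZT15 (SD, n = 4) before it fell (log2 fold change -2.06, SE 0.35, adjusted p 0.00317 from ZT15 to ZT18). The cosine beside lane gave the opposite sign (1.21, adjusted p 0.0462). Of the 7 called genes Per1 was the only one to pass beside lane in the same direction.

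Of 20 immediate early genes, which respond to stimulation within minutes, 2 were higher and none lower, a share near the 8.13% called over all tested genes. Atf3 was 0.841, 0.988, 0.850 and 1.26 CPM at ZT12 and 3.20, 1.88, 6.14 and 4.20 CPM at ZT18 (log2 fold change 1.96, SE 0.47, adjusted p 0.00974) and Fosl2 was 30.0, 23.3, 18.5 and 32.0 CPM at ZT12 and 44.7, 47.2, 71.5 and 65.0 CPM at ZT18 (log2 fold change 1.14, SE 0.24, adjusted p 0.00358). In both genes replicates 3 and 4 of ZT18, the ZT18 libraries above 1000 CPM of muscle markers, were the highest, and neither passed beside lane.

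Further genes with large changes belong to none of these groups. Phyhip rose from 1.02, 0.465, 0.364 and 0.438 CPM to 18.4, 8.89, 3.27 and 5.13 CPM (log2 fold change 3.95, SE 0.62, adjusted p 0.000186), the highest log2 fold change among the genes named by rule, and did not pass beside lane (0.93, adjusted p 0.267). Dtx4, an E3 ubiquitin ligase gene of the Deltex family, varied little among mice, with 4.68, 5.00, 4.19 and 4.00 CPM at ZT12 and 15.0, 17.9, 15.9 and 19.7 CPM at ZT18 (log2 fold change 1.94, SE 0.15, adjusted p 4.3e-09), and it passed beside lane (1.19, adjusted p 8.48e-07). P4ha1, a collagen prolyl hydroxylase, was 12.4, 14.9, 13.6 and 13.5 CPM at ZT12 and 50.3, 42.7, 22.4 and 44.2 CPM at ZT18 (log2 fold change 1.55, SE 0.26, adjusted p 0.000308), and E2f2, a cell cycle transcription factor, was 4.62, 3.14, 3.28 and 2.63 CPM at ZT12 and 17.6, 15.6, 9.86 and 6.39 CPM at ZT18 (log2 fold change 1.86, SE 0.36, adjusted p 0.00188). Both had reached this level at ZT15 within lane 3 and passed beside lane.

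The highest log2 fold changes also included Prune2 (2.36, adjusted p 0.00319), Fer1l6 (2.16, adjusted p 0.00914), Dusp8 (1.80, adjusted p 0.0265), Rims4 (1.76, adjusted p 0.0365) and Osgin1 (1.51, adjusted p 0.0151). Fer1l6 averaged 6.72 CPM at ZT12, 7.70 CPM at ZT15 and 30.1 CPM at ZT18, so that its rise lies in the step that crosses lanes. The adjusted p of Dusp8 was over 0.05 in 5 of 8 leave-one-out fits and at most 0.088 without replicate 3 of ZT18. That of Rims4 was over 0.05 in 5 of 8 leave-one-out fits and at most 0.109 without replicate 3 of ZT12, and that of Osgin1 was over 0.05 in 3 of 8 leave-one-out fits and at most 0.0643 without replicate 2 of ZT18. By CPM, Parm1 was among the genes that rose most, with 193, 154, 158 and 164 CPM at ZT12 and 372, 378, 296 and 282 CPM at ZT18 (adjusted p 0.0259, over 0.05 in 5 of 8 leave-one-out fits and at most 0.0772 without replicate 1 of ZT18), and a ZT15 mean of 170.2 CPM.

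Among the genes that fell, Cntfr, a subunit of the receptor for ciliary neurotrophic factor, was 27.0, 35.0, 30.9 and 33.6 CPM at ZT12 and 3.58, 4.19, 8.40 and 9.72 CPM at ZT18 (log2 fold change -2.29, SE 0.48, adjusted p 0.00327). Slc4a4, a sodium bicarbonate cotransporter, was 478, 448, 253 and 234 CPM at ZT12 and 66.8, 94.4, 97.5 and 160.4 CPM at ZT18 (log2 fold change -1.75, SE 0.38, adjusted p 0.00491). Ass1, the argininosuccinate synthase gene, was 4.74, 2.44, 3.88 and 3.18 CPM at ZT12 and 1.32, 0.662, 0.789 and 1.26 CPM at ZT18 (log2 fold change -1.81, SE 0.22, adjusted p 1.03e-05), and its step within lane 3 passed (-1.25, adjusted p 0.00167). Of the 100-base stretches of Ass1 26.9% also occur in Gm5424, so that its reads may be shared. Fam107a was 1.98, 4.59, 4.61 and 4.27 CPM at ZT12 and 1.10, 0.938, 0.564 and 1.15 CPM at ZT18 (-2.03, adjusted p 0.0017). Cyp2e1, a cytochrome P450, was 176, 311, 191 and 343 CPM at ZT12 and 66.8, 119.8, 67.0 and 114 CPM at ZT18 (adjusted p 0.0324, over 0.05 in 4 of 8 leave-one-out fits and at most 0.107 without replicate 1 of ZT18). Chrna2, Fam131c and Mmd2 had log2 fold changes of -2.06, -1.64 and -1.49 (adjusted p 0.0224, 0.0175 and 0.0447). Leaving out 1 library raised these to at most 0.0913 (without replicate 2 of ZT12), 0.0611 (without replicate 1 of ZT18) and 0.147 (without replicate 1 of ZT18).

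The remaining lists gave few or no calls in the fit by time point. Of 23 glucose uptake and glycolysis genes none passed with edgeR or DESeq2 (3 at an unadjusted p under 0.05). Of 22 RNA processing genes none passed with edgeR and 1 with DESeq2, with 10 at an unadjusted p under 0.05, 9 of them higher. Over all tested genes 23.0% had an unadjusted p under 0.05. The study reported on RNA processing and on the extracellular matrix in these samples. Single members passed in the lists of the amino acid response (Nupr1, 0.43, adjusted p 0.0389), ribosome biogenesis (Nop58, 0.50, adjusted p 0.0384) and the extracellular matrix (Lox, 0.51, adjusted p 0.0338), all higher. Beside lane, 1 gene of the extracellular matrix list was higher and 7 of 20 lower, and Lox did not pass. The fit beside lane called 9.13% of all tested genes. The adjusted p of Nupr1, Nop58 and Lox was above the threshold in 7, 6 and 6 of 8 leave-one-out fits, at most 0.143, 0.128 and 0.102 (without replicate 1 of ZT18, replicate 3 of ZT12 and replicate 2 of ZT18). Of 15 secreted factors, Nrg4, encoding neuregulin 4 of brown fat, was 205, 199.8, 204 and 208 CPM at ZT12 and 148, 142, 156 and 139 CPM at ZT18 (log2 fold change -0.48, SE 0.09, adjusted p 0.0013), and Fgf1 was 21.3, 17.9, 23.1 and 13.4 CPM at ZT12 and 37.0, 41.1, 32.7 and 24.3 CPM at ZT18 (adjusted p 0.0334, over 0.05 in 5 of 8 leave-one-out fits and at most 0.112 without replicate 2 of ZT18).

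Markers of other cell types mostly gave no call. The 8 endothelial markers summed to 851 to 939 CPM at ZT12 and 993 to 1146 CPM at ZT18, a mean rise of 21.1% without overlap (exact permutation test, two-sided, p = 0.0286, the smallest possible). Of the 8, Kdr, the main receptor for vascular endothelial growth factor, was 198, 181, 174 and 184 CPM at ZT12 and 333, 285, 291 and 268 CPM at ZT18 (log2 fold change 0.67, SE 0.09, adjusted p 1.43e-05) and Cldn5, a tight junction gene, was 9.13, 12.5, 11.6 and 10.8 CPM at ZT12 and 25.1, 19.5, 29.9 and 39.1 CPM at ZT18 (log2 fold change 1.37, SE 0.30, adjusted p 0.00526). These were 2 of 8 markers, beside 4.21% of all tested genes that were higher. The other 6, Pecam1, Cdh5, Tek, Vwf, Egfl7 and Flt1, did not pass, with log2 fold changes from -0.07 to 0.16. At ZT15, on lane 3, the sum was 931 to 1102 CPM, and neither gene passed beside lane. In the white adipocyte, red blood cell, lymphocyte, macrophage, pericyte, fibroblast and Schwann lists no gene passed with edgeR, and in DESeq2 only 1 gene of the Schwann list did. Their summed levels overlapped between the groups, with exact permutation p from 0.0857 to 0.943.

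The change was also set against the first 6 h of the light phase, ZT6 against ZT0, whose 8 libraries all lie on lane 2. ZT0 and ZT6 lie opposite to ZT12 and ZT18 in the 24 h day. A gene that follows a 24 h cosine therefore changes in opposite directions over the 2 intervals. A difference between them does not show that a change is particular to the start of the dark phase. The difference of the 2 changes was tested in the fit of all libraries. It passed for 3759 genes (24.2%), of which 1906 had the higher log2 value in the dark and 1853 in the light. With the libraries of high muscle level left out at ZT12 and ZT18 the number was 2260. Of 19 clock genes 15 differed, and of 21 heat-shock and cold-inducible genes 19, beside 24.2% of all tested genes.

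The log2 difference, dark minus light, had Arntl and Bsn among its 3 highest and Dbp and Nr1d1 among its 3 lowest values. Arntl rose in the dark (3.73) and fell in the light (-2.59), a difference of 6.31 (SE 0.39, adjusted p 1.1e-11). Dbp did the opposite, with -3.52 and 4.21 (difference -7.73, SE 0.37, adjusted p 2.34e-14), as did Nr1d1 (-5.26, SE 0.33, adjusted p 1.1e-11). Bsn, which encodes a scaffold of nerve terminals, was 1.74, 0.988, 0.607 and 0.822 CPM at ZT12 and 7.05, 8.17, 2.70 and 1.64 CPM at ZT18 (difference 5.57, adjusted p 6.38e-05).

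Hsph1 changed by 2.22 in the dark and -3.10 in the light (difference 5.31, SE 0.49, adjusted p 1.3e-08), and Hspa8 by 1.26 and -2.03 (difference 3.29, adjusted p 1.54e-09). Cirbp changed by -0.85 and 1.02 (difference -1.88, adjusted p 5.3e-06). For Per2 the changes were -0.67 and -0.68, and their difference did not pass (0.01, adjusted p 0.987).

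**Figure D5:**
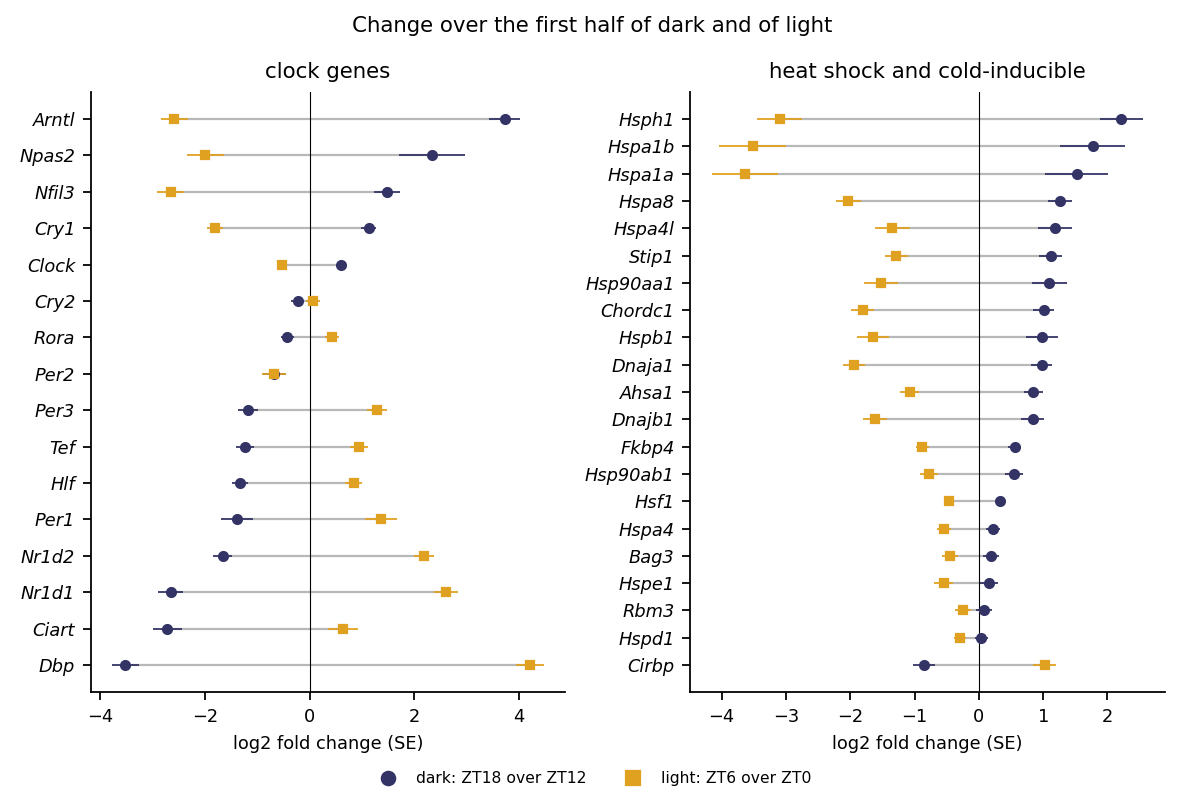
Log2 fold change of 16 clock genes (left) and of heat-shock and cold-inducible genes (right) over the first 6 h of the dark phase (ZT18 over ZT12, dark circles) and of the light phase (ZT6 over ZT0, yellow squares), with SE. Grey lines join the values of a gene. Arntl and Hsph1 rose in the dark and fell in the light, Dbp and Cirbp the reverse, and the 2 values of Per2 lie together.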

How the data were processed

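RNA from interscapular brown adipose tissue of 32 male mice, 4 for each of 8 time points, had been made into stranded paired-end libraries. The authors aligned the reads to mm10 with GSNAP, counted them per Ensembl gene with HTSeq-count (0.6.1) and deposited raw read counts without normalization or pooling. Whether the strand was used in counting is not given in the sources used here. The deposited count table lists 50686 genes, of which 20100 had no count and 50376 were matched to a symbol.

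Genes were filtered with filterByExpr (15505 left, with 99.9% of the counts), scaled by TMM and tested with edgeR's quasi-likelihood test (edgeR 4.0.16, limma 3.58.1, R 4.3.3). The fit held all 32 libraries with 1 term per time point, and p-values were adjusted by Benjamini-Hochberg over all tested genes, with a threshold of 0.05. For shares and summed marker levels the test was an exact permutation of the 4 and 4 mice, two-sided. The scripts were tested on simulated data. In the 8 libraries 3 counts correspond to 0.164 to 0.184 CPM, which covers counting error only. Libraries of 1 time point differed from each other by more than sampling noise, with a mean chi-square per gene of at least 8.23, so each was taken as a separate mouse.

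The genes that may be named were those past the threshold, with separate ranges of the 2 groups, an established symbol and an average of 1 CPM or more, of which the 15 highest and 15 lowest log2 fold changes and the 8 largest rises and 8 largest falls in CPM were taken, then the 3 highest and 3 lowest dark minus light differences (without the condition on ranges), and all members of the gene lists. Some of these genes are not reported here. Members and lists were chosen with earlier results of these data known. Alternatives were DESeq2 (1.42.0), RLE factors, library size alone, mitochondrially encoded genes removed before scaling, no filter, the 8 libraries alone, a replicate block, a test against 1.5-fold, a 24 h cosine beside lane, and leaving out each library in turn. Those that concern muscle transcripts, above 1000 CPM or as a covariate, were chosen after seeing the data. Shared sequence was judged on 100-base stretches of GENCODE transcripts (vM21, GRCm38), and promoters were taken from RefSeq (GRCm38.p6).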

Additional observations from a re-analysis of the deposited data

Results flagged for a closer look

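The change from ZT12 to ZT18 and the change from ZT0 to ZT6 differed for 3759 genes by the test of that difference in edgeR. Among those named, the log2 difference, dark minus light, was 6.31 for Arntl, 5.57 for Bsn, -7.73 for Dbp and -5.26 for Nr1d1.

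In 12 of the 238 sets of 4 mice examined, a single mouse lay far from the other 3 by Dixon's criterion, where chance alone gives about 1 in 20. At ZT12 these were Rora in replicate 2 (32.0 CPM), Per1 in replicate 3 (140.1 CPM), Nr1d1 in replicate 1 (154 CPM), Hsp90ab1 in replicate 4 (626 CPM, the lowest), Akt2 in replicate 1 (458 CPM), Phyhip in replicate 1 (1.02 CPM) and Fam107a in replicate 1 (1.98 CPM, the lowest). At ZT18 they were Rora in replicate 4 (23.7 CPM), Cd36 in replicate 1 (1660.4 CPM, the lowest), Cpt1a in replicate 3 (14.5 CPM), Esrra in replicate 1 (107 CPM, the lowest) and Mt2 in replicate 4 (5.73 CPM).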

How the results depend on the processing

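The 1260 genes that differed between ZT12 and ZT18 became 597 to 1080 when 1 library was left out, 748 without a filter on low counts, 266 without the 4 libraries of high muscle transcripts, where 2 mice per group remain, and 27 in the test against 1.5-fold. Other settings gave 1089 to 1443. Without a filter the counts for ZT15 against ZT12, ZT18 against ZT15 and ZT21 against ZT18 were 244, 98 and 190, and the last was 187 with library size alone. The dark and light difference gave 2260 genes without the libraries of high muscle transcripts and 3032 to 3832 with 1 library left out. The cosine beside lane turned the sign of the log2 change of Per2 (0.28), Cd36 (0.045), Angptl4 (-0.47), Fasn (-0.00071), mt-Cytb (0.047), mt-Nd4 (0.10), mt-Co2 (-0.057), mt-Atp6 (-0.015), Fkbp5 (1.21) and Glul (0.20). Among marker sums that did not pass, the pericyte and smooth muscle difference turned to 0.45 CPM with library size alone and to 3.09, 25.5, 0.988 and 9.09 CPM without ZT12 replicate 2 or 3 or ZT18 replicate 1 or 2, the skeletal muscle one to 1159 CPM without ZT12 replicate 2 and to 86.4 and 86.3 CPM without ZT18 replicate 1 or 2, and the white adipocyte one to 9.83 and 5.40 CPM without ZT12 or ZT18 replicate 4. The cause of these shifts was not tested, beyond the smaller number of mice where libraries were left out. With the replicate block 1189 genes differed between ZT12 and ZT18, and the steps gave 452, 159 and 292 genes and the dark and light difference 3658. The numbers do not pair the mice, since deviations of same-numbered mice of ZT12 and ZT18 correlated at 0.374, -0.639, 0.405 and -0.592. Depth limits low genes such as Npas2, whose ZT12 values lie near or under 3 counts in a library (0.164 to 0.184 CPM).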
